A study of Mus musculus with 10 samples.

Results

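The collagen prolyl and lysyl hydroxylases that use ascorbate as a cofactor were examined across osteoblast differentiation. They are the prolyl 4-hydroxylase alpha subunits P4ha1, P4ha2 and P4ha3, the lysyl hydroxylases Plod1, Plod2 and Plod3, and the prolyl 3-hydroxylases P3h1, P3h2 and P3h3. The members were chosen by name and found through the Ensembl identifiers that map to these symbols, and they make up 9 of the 40620 genes in the count table. All 9 passed the filter on low counts, which kept 20808 genes for testing. RNA from MC3T3-E1 cells, a subclonal line of mouse calvarial osteoblast precursors, was sequenced as 51 bp paired-end reads at 5 stages, with 2 replicates named A and B at each. Subconfluent cells were collected while growing in αMEM with 10% iFBS serum, here called growth medium, and confluent cells were collected from the same medium on the day differentiation began. The remaining cells were switched to osteogenic medium, which added ascorbic acid at 50 µg/ml and β-glycerophosphate at 10 mM, and were collected after 24 h, 14 d or 21 d. Whether the αMEM itself held ascorbic acid is not given in the sources used here. Medium and time in culture changed together from confluence onward, and their effects cannot be told apart.

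Collagen hydroxylases act in the endoplasmic reticulum on procollagen chains before the triple helix closes, and they need iron, oxygen, 2-oxoglutarate and ascorbate, which keeps the iron reduced. Hydroxyproline made by the P4ha enzymes holds the helix together at body temperature, hydroxylysine made by the Plod enzymes carries sugars and forms the crosslinks of bone matrix, and the rarer product of the P3h enzymes lies at few positions of fibrillar collagens. Cultured osteoblasts are given ascorbic acid because they lay down little stable collagen without it, and inherited loss of several of these enzymes or of their partners causes brittle bones.

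Between 44736156 and 162939333 counts were assigned to genes in each sample, and the 9 members together took between 0.0675% of them, in 24 h replicate A, and 0.126%, in 21 d replicate B. Across 16133 genes the SD of the log2 ratio between replicates was 0.674 at 24 h and from 0.282 to 0.321 elsewhere, so the 24 h libraries stood apart. For comparisons between other stages, the numbers of members called are also given without them. The sources used here do not say whether replicates were separate cultures. P-values therefore measure only the spread between these samples, which may be technical. Subconfluent, confluent and 24 h libraries share a set of 2 index sequences and the 14 d and 21 d libraries another, so a difference across that line and a difference between library sets cannot be told apart. In bulk RNA, fewer cells of a type and less RNA per cell cannot be told apart either.

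Most osteoblast markers were higher at 14 d and 21 d than in confluent cells. Alpl, Ibsp and Sp7, 3 of 8, were already called higher in confluent than in subconfluent cells, against 1.95% of all genes. The same 3 were called higher at 24 h than in confluent cells, against 3.59%, all lost with only the groups compared. The earlier call of Sp7 was lost under 2 of 21 alternatives. Of 8 markers, 7 rose at 14 d against confluent cells, where 16.9% of all genes did, with a median log2 fold change of 1.90 against 0.03 for all genes tested. The increase was 6.44 for Bglap (osteocalcin; adjusted p = 4.2e-04) and 2.43 for Alpl (alkaline phosphatase; adjusted p = 3.1e-05), both higher in 2 of 2 samples. At 21 d 7 of 8 were also higher than in confluent cells, against 22.0% of all genes, with Spp1 in place of Col1a1 and a median of 1.78 against 0.03. The call of Col1a1 at 14 d was lost under 9 of 21 alternatives and that of Runx2 at 21 d under 12. Between 14 d and 21 d, however, 3 of 8 fell and 2 rose, against 5.95% and 3.77% of all genes, with a median of −0.51 against −0.03. Of the falls, that of Col1a1 was lost under 12 of 21 alternatives. Alpl (−1.47, adjusted p = 6.4e-04) and Sp7 (−0.83, adjusted p = 0.0014) fell under all alternatives, and the total of 5 was 3 without 14 d replicate B (3.50% of all genes called). The markers therefore did not all rise with the labelled stages. Chondrocyte markers moved as well, and their part in the results on the hydroxylases was not tested. Their summed level in subconfluent, confluent, 24 h, 14 d and 21 d samples was 176 and 174, 98.2 and 89.7, 47.4 and 64.1, 237 and 244, and 112 and 117 RPKM (the authors' read counts scaled for gene length and sequencing depth), in each pair A then B. Most of it was Col2a1, which encodes the cartilage collagen chain, while Matn1 had at most 3 counts in every sample. All 4 of the 6 that were tested, among them Sox9 with 1.24 (adjusted p = 7.4e-04), rose at 14 d against confluent cells. Acan, which was not tested, had at most 10 counts in any sample. Col9a1, which was tested, had 0 counts in both confluent libraries and a mean of 0.518 RPKM at 14 d.

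Called means an adjusted p under 0.05 in edgeR's quasi-likelihood test with Benjamini-Hochberg adjustment over all genes tested. Between confluent and subconfluent cells, a step without a change of medium, 0 of 9 members were called, against 3.28% of all genes tested (1.95% up and 1.34% down). An unadjusted p under 0.05 was reached by 4 of them, and DESeq2 called 3, namely Plod1 and Plod3 as lower and P3h1 as higher in confluent cells, where DESeq2 called 9.61% of all genes. Without the 24 h libraries, edgeR called 4 members here, P4ha3, Plod1 and Plod3 as lower and P3h1 as higher, against 16.5% of all genes, and leaving out only 24 h replicate A or only replicate B also gave 4 (14.5% and 14.6% of all genes). After 24 h of osteogenic medium against confluent cells, the first day after the change of medium, 0 of 9 members were called by edgeR, against 5.15% of all genes (3.59% up and 1.57% down). Here 2 had an unadjusted p under 0.05 and DESeq2 called the same 2, P3h2 as lower and P3h3 as higher at 24 h, against 15.8% of all genes in DESeq2. Leaving out 24 h replicate A gave 2 called members (10.1% of all genes) and leaving out replicate B gave 3 (39.9%).

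Calls appeared between 24 h and 14 d, when P4ha1, P4ha2, Plod1 and P3h3 rose, 4 of 9 against 9.08% of all genes. Of all genes 17.3% were called there, and 8.21% fell, but no member did. The median log2 fold change of the 9 was 0.55, and that of all genes tested 0.01. Without 24 h replicate B the count was 7, against 46.6% of all genes. At 14 d against confluent cells the same 4 members were higher, against 16.9% of all genes called higher, 15.3% called lower and 32.1% called in all, with a median of 0.53 against 0.03. Without both 24 h libraries 7 members were called, 5 as higher with Plod2 added and P4ha3 and Plod3 as lower, against 52.7% of all genes, and the same 7 without 24 h replicate A (48.5% of all genes) or B (48.8%). At 21 d against confluent cells 5 of 9 were higher, the earlier 4 and Plod2, against 22.0% of all genes. P4ha3 and P3h1 were lower, 2 of 9 against 20.8%. The 7 calls stand against 42.8% of all genes called in either direction, and the median of the 9 was 0.47 against 0.03. Without both 24 h libraries 8 were called, with P3h2 added as higher, against 61.5% of all genes, and the same 8 without either one (57.3%). The comparisons of 14 d and of 21 d with confluent cells share the confluent samples, so their values stand side by side and are not independent of each other.

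Between 14 d and 21 d, 1 of 9 members rose further, P4ha2, against 3.77% of all genes, and 1 of 9 fell, P3h1, against 5.95%, where 9.72% of all genes were called in either direction. The total of 2 was 6 without both 24 h libraries (26.6% of all genes) and without replicate A (23.9%) or B (24.1%) of 24 h, 1 without 21 d replicate A, and 0 when a subconfluent replicate, a 14 d replicate or 21 d replicate B was left out. In the F test for any difference among the 5 stages all 9 members were called, against 48.9% of all genes, and 5 were called without subconfluent replicate A (34.7% of all genes) or B (35.2%). With library size alone as scaling, the median of all genes was −0.20 at 14 d against confluent cells, −0.11 at 21 d and −0.13 at 24 h, where TMM scaling gave 0.03 at 14 d and 21 d, so fold changes near these sizes depend on the scaling.

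**Figure D1:**
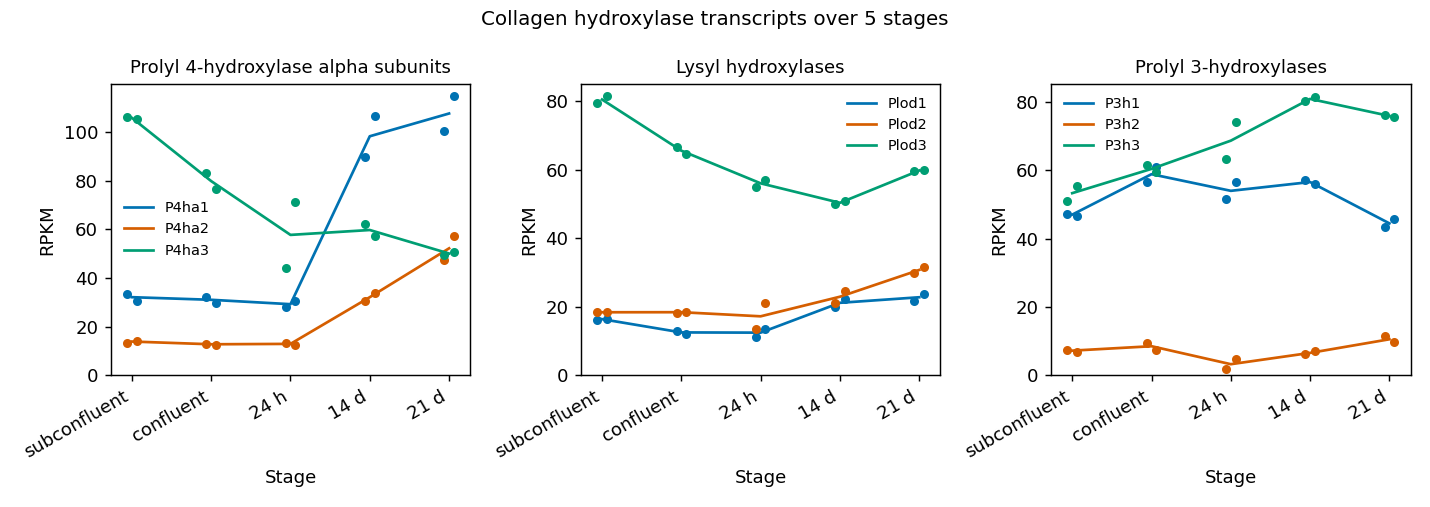
Levels of the 9 hydroxylase genes in RPKM at the 5 stages, with a panel for each enzyme family; points are the 2 replicates and lines join stage means. P4ha1 and P4ha2 lie lower up to 24 h and higher at 14 d and 21 d, while P4ha3 is highest in subconfluent cells.

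The catalytic alpha subunits of prolyl 4-hydroxylase pair with the beta subunit P4hb to make the enzyme that hydroxylates proline in the repeating collagen triplet. P4ha1 (ENSMUSG00000019916, chr10:59323296-59373304, plus strand, GRCm38), the main alpha subunit of most cells, stood at 33.5 and 30.6 RPKM in subconfluent replicates A and B, 32.3 and 29.7 RPKM in confluent, 28.0 and 30.4 RPKM at 24 h, 89.7 and 107 RPKM at 14 d, and 100.4 and 115 RPKM at 21 d. All 4 samples of 14 d and 21 d lay above all 6 earlier ones, with an empty range between 33.5 and 89.7 RPKM. Confluent samples overlapped both other early stages, which did not overlap each other, and 14 d overlapped 21 d. P4ha1 was 3.69-fold higher at 14 d than in confluent cells, or 1.88 on the log2 scale (standard error 0.13, adjusted p = 1.1e-04, edgeR). Against the same confluent samples it was 3.83-fold higher at 21 d (log2 fold change 1.94, standard error 0.13, adjusted p = 4.1e-05). It was called in both without the 24 h libraries too, with adjusted p-values of 5.9e-05 and 2.3e-05. Over the alternatives its adjusted p at 14 d against confluent cells ranged up to 0.0025 and at 21 d up to 9.5e-04. At 24 h its log2 fold change against confluent cells was 0.00 with a standard error of 0.13, and at 21 d against 14 d it was 0.06 (adjusted p = 0.88).

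P4ha2 (ENSMUSG00000018906, chr11:54100095-54131665, plus strand), the alpha subunit of the second enzyme form, which is prominent in cartilage and bone cells, had 13.4 and 14.2 RPKM in subconfluent cells, 12.9 and 12.5 RPKM in confluent, 13.3 and 12.4 RPKM at 24 h, 30.4 and 33.8 RPKM at 14 d, and 47.2 and 57.1 RPKM at 21 d. The 6 samples up to 24 h fell in a narrow band from 12.4 to 14.2 RPKM, both 14 d samples were above it, and both 21 d samples were above those of 14 d. Its log2 fold change against confluent cells was 1.55 at 14 d (2.94-fold; standard error 0.13, adjusted p = 2.3e-04) and 2.18 at 21 d (4.53-fold; standard error 0.13, adjusted p = 2.9e-05). P4ha2 had the largest fold change of the 9 members at 21 d against confluent cells under TMM scaling. It rose again by 1.54-fold between 14 d and 21 d (log2 fold change 0.63, standard error 0.13, adjusted p = 0.022). Without the 24 h libraries that adjusted p was 0.0066. This call was lost when either subconfluent replicate, either 14 d replicate or 21 d replicate B was left out, and over all alternatives its adjusted p ran from 1.0e-04 to 0.16. P4ha1 was not called over the same interval, and a difference between P4ha1 and P4ha2 in that step was not tested.

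P4ha3 (ENSMUSG00000051048, chr7:100285520-100319699, plus strand), an alpha subunit found at low levels in many tissues, followed another course. It had 106 and 105 RPKM in subconfluent cells, 83.1 and 76.5 RPKM in confluent, 44.1 and 71.3 RPKM at 24 h, 62.3 and 57.0 RPKM at 14 d, and 49.5 and 50.5 RPKM at 21 d. Both subconfluent samples were above all others, both confluent samples came next, and 14 d lay above 21 d, with 24 h replicate A below and replicate B above the samples of both. In RPKM it was the most abundant of the 9 members in subconfluent and confluent cells. P4ha3 was called lower only at 21 d against confluent cells, where its level was 0.692 of that in confluent cells (log2 fold change −0.53, standard error 0.17, adjusted p = 0.043). This call was lost with a minimum of 10 counts in every sample, and when any 1 replicate of the subconfluent, confluent, 14 d or 21 d stages was left out, with adjusted p-values up to 0.16, while without the 24 h libraries it was 3.3e-04 (range over alternatives 3.0e-04 to 0.16). In the fit without 24 h libraries P4ha3 was also lower in confluent than in subconfluent cells (log2 fold change −0.43, adjusted p = 0.0081, range 0.0081 to 0.76 over alternatives). In the fit of all samples the same comparison gave −0.43 with an adjusted p of 0.26, which was not called.

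These courses changed the make-up of the alpha subunit RNA. The share of each subunit is its RPKM over the summed RPKM of the 3. P4ha3 held 69.8% ± 0.535 (SD, n = 2) in subconfluent cells, 64.6% ± 0.219 in confluent, 57.1% ± 7.65 at 24 h, 31.5% ± 3.74 at 14 d and 23.9% ± 1.68 at 21 d. P4ha1 held 21.1% ± 1.05, 25.1% ± 0.0892, 29.7% ± 4.34, 51.6% ± 3.42 and 51.3% ± 0.462 at the same stages, so it was the most abundant alpha subunit in RPKM in the 4 samples of 14 d and 21 d and P4ha3 was in the 6 earlier ones. The ratio of P4ha1 to P4ha3 lay between 0.291 and 0.635 in the 6 samples up to 24 h and between 1.44 and 2.27 in the 4 later ones. P4ha2 held 8.75% and 9.49% in subconfluent replicates, 10.1% and 10.5% in confluent, 15.6% and 10.9% at 24 h, 16.6% and 17.1% at 14 d, and 23.9% and 25.7% at 21 d. Every osteogenic sample was above every growth medium sample. The mean P4ha2 share was 9.71% ± 0.762 (SD, n = 4) in growth medium and 18.3% ± 5.52 (SD, n = 6) in osteogenic medium, with an exact two-sided permutation p of 0.0095, the smallest that 4 against 6 samples can give, and 0.067 after Benjamini-Hochberg adjustment over 7 ratios, which misses 0.05. The test takes the 10 samples as independent, but they are 5 stages of 2 replicates, 2 stages in growth and 3 in osteogenic medium, so the exact p-values of all 7 ratios count replicates of a stage as separate units. Leaving out 24 h replicate A gave 0.037, and the other 11 alternatives gave 0.067 to 0.17. The 3 subunits summed to 152 ± 2.15 RPKM (SD, n = 2) at the subconfluent stage, 124 ± 6.80 RPKM in confluent, 99.7 ± 20.3 RPKM at 24 h, 190.0 ± 10.7 RPKM at 14 d and 209.8 ± 17.9 RPKM at 21 d.

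**Figure D2:**
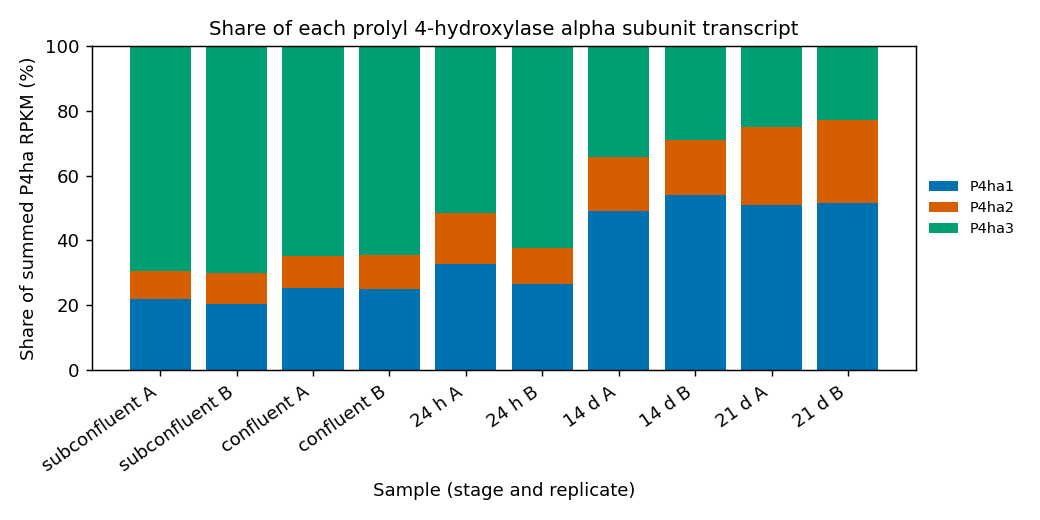
Share of P4ha1, P4ha2 and P4ha3 in their summed RPKM in each of the 10 samples, as stacked bars in percent. P4ha3 holds from 22.7% to 34.2% in the samples of 14 d and 21 d and from 51.6% to 70.1% in the 6 others.

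Among the lysyl hydroxylases, Plod1 (ENSMUSG00000019055, chr4:147909753-147936767, minus strand), which acts on the helical part of collagen and is mutated in kyphoscoliotic Ehlers-Danlos syndrome, had 16.2 and 16.5 RPKM in subconfluent cells, 12.8 and 12.1 RPKM in confluent, 11.2 and 13.6 RPKM at 24 h, 19.9 and 22.4 RPKM at 14 d, and 21.7 and 23.8 RPKM at 21 d. The 4 samples of 14 d and 21 d were the highest and overlapped each other, the subconfluent samples lay in the middle, and confluent and 24 h samples overlapped at the bottom. Plod1 was 1.97-fold higher at 14 d than in confluent cells (log2 fold change 0.98, standard error 0.11, adjusted p = 6.6e-04) and 2.01-fold higher at 21 d (1.01, standard error 0.11, adjusted p = 2.7e-04). Without the 24 h libraries the adjusted p-values were 1.8e-04 and 7.8e-05. It also rose between 24 h and 14 d (log2 fold change 0.90, adjusted p = 0.0023), a call lost only when just those 2 stages were fitted (adjusted p = 0.11, the highest over alternatives, the lowest being 8.1e-13). In confluent against subconfluent cells its log2 fold change was −0.42 (adjusted p = 0.091), and 0.021 was the adjusted p without the 24 h libraries.

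Plod2 (ENSMUSG00000032374, chr9:92542223-92608428, plus strand), the hydroxylase of the telopeptides whose loss causes Bruck syndrome, had 18.4 and 18.3 RPKM in subconfluent cells, 18.3 and 18.5 RPKM in confluent, 13.4 and 21.0 RPKM at 24 h, 21.2 and 24.6 RPKM at 14 d, and 29.8 and 31.7 RPKM at 21 d. Subconfluent and confluent samples were nearly level, the 24 h replicates lay on both sides of them, both 14 d samples were above all earlier ones, and both 21 d samples were above those of 14 d. Plod2 was 1.84-fold higher at 21 d than in confluent cells (log2 fold change 0.88, standard error 0.17, adjusted p = 0.0052), and its adjusted p reached at most 0.037 over the alternatives. At 14 d the log2 fold change was 0.53 (standard error 0.17), and its adjusted p of 0.0504 just missed the threshold. It passed under 8 alternatives, the lowest being 0.0026 without the 24 h libraries.

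Plod3 (ENSMUSG00000004846, chr5:136987019-136996648, plus strand), which also transfers sugars to hydroxylysine, was the most abundant of the Plod genes in RPKM in every sample. It had 79.4 and 81.6 RPKM in subconfluent cells, 66.5 and 64.6 RPKM in confluent, 54.9 and 57.1 RPKM at 24 h, 49.9 and 50.7 RPKM at 14 d, and 59.7 and 59.9 RPKM at 21 d. No 2 stages overlapped in RPKM, with 14 d lowest, then 24 h, 21 d, confluent and subconfluent. In edgeR Plod3 was called in the F test over the stages (adjusted p = 0.0071; lost without either subconfluent replicate) and in none of the 6 comparisons between stages. Confluent against subconfluent cells gave −0.32 on the log2 scale (standard error 0.08, adjusted p = 0.08), where it passed under 6 alternatives, and 14 d against confluent cells gave −0.16 (adjusted p = 0.15), where it passed under 7. In the other direction, 21 d against 14 d gave 0.17 (adjusted p = 0.23), where it passed under 7 as well. Of the 4519 exon bases of Plod3 in GENCODE vM21, 529 are shared with Znhit1 on the opposite strand. Since use of strand in the counting is not given in the sources used here, reads from that stretch cannot be told apart. The authors' length for Plod3 is 3703 bases, so whether their counts include that stretch is not known. Znhit1 itself was at 37.9 to 43.4 RPKM in growth medium and at 25.8 to 27.4 RPKM at 14 d and 21 d.

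The share of Plod3 in the summed Plod RPKM was 69.9% ± 0.318 (SD, n = 2) in subconfluent cells and 52.8% ± 1.25 at 21 d, while that of Plod2 was 15.9% ± 0.295 and 27.1% ± 0.450. Over 4 growth medium samples the Plod2 share averaged 17.5% ± 1.84 (SD, n = 4), and over 6 osteogenic samples 23.7% ± 3.84 (SD, n = 6; exact two-sided permutation p = 0.029, adjusted 0.067). Growth samples ran from 15.7% to 19.4% and osteogenic samples from 16.9% to 27.4%, so the groups overlapped. The adjusted exact p was 0.037 without 24 h replicate A and 0.067 to 0.17 under the other 11 alternatives. The summed Plod level was 115 ± 1.74 RPKM in subconfluent cells, 96.4 ± 1.69 RPKM in confluent, 85.6 ± 8.56 RPKM at 24 h, 94.4 ± 4.75 RPKM at 14 d and 113 ± 2.96 RPKM at 21 d, so the sums of subconfluent and 21 d cells differed by less than the SD at 21 d.

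Among the prolyl 3-hydroxylases, P3h1 (ENSMUSG00000028641, chr4:119232915-119248975, plus strand) works in a complex with Crtap and the prolyl isomerase Ppib, and loss of this complex causes recessive osteogenesis imperfecta. P3h1 had 47.3 and 46.7 RPKM in subconfluent cells, 56.6 and 61.1 RPKM in confluent, 51.5 and 56.4 RPKM at 24 h, 57.2 and 55.9 RPKM at 14 d, and 43.2 and 45.6 RPKM at 21 d. The 21 d samples were the lowest, the subconfluent ones came next, and 24 h and confluent samples lay above them without overlap between the 2, while 14 d overlapped both. Between 14 d and 21 d P3h1 fell to 0.747 of its level (log2 fold change −0.42, standard error 0.08, adjusted p = 0.019), and 0.0035 was the adjusted p without the 24 h libraries. This call was lost with library size alone, with no filter and when any 1 subconfluent, 14 d or 21 d replicate was left out, with adjusted p-values up to 0.17. Against confluent cells it was at 0.834 at 21 d (log2 fold change −0.26, standard error 0.08, adjusted p = 0.035), and 0.0064 was the adjusted p without the 24 h libraries. That call was lost with no filter, with a minimum of 10 counts in every sample and when any 1 subconfluent, confluent, 14 d or 21 d replicate was left out, up to 0.19.

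P3h2 (ENSMUSG00000038168, chr16:25959288-26105784, minus strand), known for its action on basement membrane collagen, was the least abundant member in RPKM in every sample. It had 7.46 and 6.90 RPKM in subconfluent cells, 9.44 and 7.51 RPKM in confluent, 1.79 and 4.64 RPKM at 24 h, 6.06 and 6.99 RPKM at 14 d, and 11.4 and 9.67 RPKM at 21 d. Both 24 h samples were below all others and both 21 d samples above all others, with 14 d and subconfluent samples overlapping between them and confluent samples above these. The log2 fold change at 24 h against confluent cells was −1.33 (standard error 0.36), with an adjusted p of 0.087, and over alternatives the fold change ran from −2.08 to −0.83 and the adjusted p from 5.0e-04 to 0.5. It was called in DESeq2 and when either 24 h replicate was left out, and each 24 h replicate alone gave the lower value. P3h2 passed the F test over the stages (adjusted p = 0.04), but not with library size alone or without any 1 subconfluent, confluent, 14 d or 21 d replicate. Without the 24 h libraries P3h2 was higher at 21 d than in confluent cells (log2 fold change 0.44, adjusted p = 0.031) and than at 14 d (0.62, adjusted p = 0.021), while with them these adjusted p-values were 0.34 and 0.37 (ranges over alternatives 0.031 to 0.68 and 0.02 to 0.74). Of its 3721 exon bases in GENCODE vM21, 1055 are shared with the antisense gene Gm4524, so reads of the 2 genes cannot be told apart in that stretch. The authors' length for P3h2 is 2542 bases, so whether their counts include that stretch is not known. Gm4524 itself was at 3.48 and 2.74 RPKM at 24 h, 4.40 to 5.24 RPKM in growth medium and 6.62 and 6.60 RPKM at 21 d.

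P3h3 (ENSMUSG00000023191, chr6:124841089-124857752, minus strand), which takes part in a complex with Plod1 and P3h4, had 51.1 and 55.4 RPKM in subconfluent cells, 61.4 and 59.4 RPKM in confluent, 63.2 and 74.1 RPKM at 24 h, 80.4 and 81.4 RPKM at 14 d, and 76.2 and 75.6 RPKM at 21 d. The stages did not overlap in RPKM and stood in the order subconfluent, confluent, 24 h, 21 d and 14 d. P3h3 was 1.56-fold higher at 14 d than in confluent cells (log2 fold change 0.64, standard error 0.09, adjusted p = 0.0019) and 1.39-fold higher at 21 d (0.47, standard error 0.09, adjusted p = 0.0045). Without the 24 h libraries these were 3.1e-04 and 7.0e-04, and with library size alone as scaling the call at 21 d was lost (adjusted p = 0.071, the highest over alternatives). The rise between 24 h and 14 d (1.29-fold, log2 fold change 0.37, adjusted p = 0.032) was lost under 14 of 20 alternatives, with adjusted p-values up to 0.34, among them library size alone, limma-trend and leaving out any 1 subconfluent, confluent, 14 d or 21 d replicate. The share of P3h1 in the summed P3h RPKM averaged 44.9% ± 2.04 (SD, n = 4) in growth medium and 38.7% ± 4.18 (SD, n = 6) in osteogenic medium (exact two-sided permutation p = 0.019, adjusted 0.067, with 0.037 without 24 h replicate A and 0.067 to 0.17 under the other 11 alternatives). That of P3h3 was 47.3% ± 1.26 (SD, n = 2) in confluent cells and 58.0% ± 0.369 at 21 d.

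The hydroxylases work with other proteins of the endoplasmic reticulum, and 6 of these partners were counted. P4hb, the beta subunit that completes prolyl 4-hydroxylase, had 423 ± 15.5 RPKM (SD, n = 2) in confluent samples, 474 ± 3.50 RPKM at 14 d, then 599 ± 26.4 RPKM at 21 d. It rose at 14 d against confluent cells (log2 fold change 0.38, adjusted p = 0.018) and was higher at 21 d (0.65, adjusted p = 0.0012), in 2 of 2 samples each time, and only the second call held under all alternatives. Crtap, the partner of P3h1, also rose at 14 d (0.45, adjusted p = 0.025), which made 2 of 6 partners at 14 d, against 16.9% of all genes called higher and 32.1% called in all, with a median log2 fold change of 0.33 against 0.03 for all genes. That count was 0 without either subconfluent replicate, either 14 d replicate or confluent replicate A, and 1 without either 21 d replicate (P4hb) or confluent replicate B, where P3h4 was called and neither P4hb nor Crtap was, and library size alone, no filter and limma-trend on RPKM also gave 0. Fkbp10, a chaperone that assists Plod2 at the telopeptides, was at 207 ± 9.60 RPKM in confluent cells, 194 ± 4.98 RPKM at 14 d and 144 ± 0.241 RPKM at 21 d, and fell between 14 d and 21 d (−0.51, adjusted p = 0.01). That call was lost with no filter and without any 1 subconfluent, 14 d or 21 d replicate (adjusted p up to 0.099), and without the 24 h libraries 3 partners were called there, against 26.6% of all genes. Fkbp10 was lower at 21 d than in confluent cells (−0.38, adjusted p = 0.009), where P4hb was the single partner called higher, and the count of 2, against 42.8% of all genes called, became 1 without either 21 d replicate. The call of Fkbp10 was also lost without confluent replicate B (adjusted p up to 0.061). In confluent against subconfluent cells and at 24 h against confluent cells 0 of 6 partners were called by edgeR, 0 had an unadjusted p under 0.05 and DESeq2 called 0. At 24 h the count was 1 with library size alone or without 24 h replicate A and 2 without 24 h replicate B, where 39.9% of all genes were called. Of the glycosyltransferases that modify hydroxylysine, Colgalt1 stayed between 35.1 and 45.5 RPKM and Colgalt2 had 81 counts over all samples. With 3 counts or fewer in each confluent library it has no fold here, and it was called higher at 14 d (adjusted p = 0.0061) and 21 d (0.004), both lost without confluent replicate B (0.072 and 0.055).

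The levels of the enzymes were then set against those of a partner or of their substrate. Summed P4ha per P4hb, both in RPKM, was 0.325 ± 0.0381 (SD, n = 4) in growth medium and 0.329 ± 0.0797 (SD, n = 6) in osteogenic medium (exact two-sided permutation p = 0.92). These means pool stages that differ, as the ratio was 0.357 ± 0.00826 (SD, n = 2) in subconfluent cells, 0.292 ± 0.00535 in confluent, 0.236 ± 0.0481 at 24 h, 0.401 ± 0.0255 at 14 d and 0.350 ± 0.0144 at 21 d. Both 24 h samples lay below all 4 growth medium samples and both 14 d samples above them, so the near-equal pooled means depend on the 24 h samples. Summed P3h per Crtap was 0.830 ± 0.0202 in growth and 0.812 ± 0.0913 in osteogenic medium (exact p = 0.89), with 0.644 and 0.869 at 24 h, 0.805 and 0.800 at 14 d, and 0.852 and 0.904 at 21 d. Col1a1, the main chain of bone collagen, had 6215 ± 88.7 RPKM (SD, n = 2) in confluent samples, 9709 ± 1009 RPKM at 14 d, and then 5094 ± 274 RPKM at 21 d. Summed P4ha per 1000 RPKM of Col1a1 was 27.3 ± 0.354 in subconfluent cells, 19.9 ± 0.811 in confluent, 20.2 ± 3.34 at 24 h, 19.7 ± 3.15 at 14 d and 41.3 ± 5.73 at 21 d, and both 21 d samples were above those of all other stages. Summed Plod per 1000 RPKM of Col1a1 was 20.8 ± 0.877 in subconfluent cells, 15.5 ± 0.0504 in confluent, 17.7 ± 4.73 at 24 h, 9.80 ± 1.51 at 14 d and 22.3 ± 1.78 at 21 d, where subconfluent and 21 d samples overlapped. Between growth and osteogenic samples these 2 ratios differed by 3.48 (exact p = 0.61) and −1.57 (exact p = 0.64), and each p was 0.89 after adjustment. Of 13 collagen chains, 8 rose at 14 d against confluent cells, where 16.9% of all genes did (median log2 fold change 0.75 against 0.03 for all genes). This count was 5 without either subconfluent replicate (26.1% of all genes called in either direction), and 4 without confluent replicate A (18.0%) or B (19.4%) or 14 d replicate A (16.8%) or B (16.3%). The calls of Col1a1, Col5a1 and Col6a2 at 14 d were also lost with library size alone, and these and that of Col1a2 with limma-trend. Over all alternatives 4 to 12 chains were called there in either direction, in fits that called 16.3% to 52.7% of all genes. At 21 d against confluent cells 3 were higher, against 22.0% of all genes (median 0.03 against 0.03). They were Col4a1 (2.20, adjusted p = 3.8e-04), Col4a2 (2.02, adjusted p = 9.6e-04) and Col5a1 (0.69, adjusted p = 0.031). The call of Col5a1 was lost with library size alone, limma-trend or without any 1 replicate of a stage other than 24 h. Its adjusted p reached 0.16 over the alternatives. Over these, 2 to 7 chains were called at 21 d in either direction, in fits that called 27.9% to 61.5% of all genes.

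Genes for the uptake and recycling of ascorbate were counted beside the enzymes that use it. Of 11 such genes 9 were tested, and Gulo, which makes ascorbate in mouse liver, had 1 count over all samples. Slc23a2, the sodium-dependent ascorbate transporter of most cells, had 6.57 RPKM in confluent samples, 14.3 ± 0.283 RPKM (SD, n = 2) at 14 d and then 16.4 ± 0.193 RPKM at 21 d. It rose by 1.34 on the log2 scale at 14 d (adjusted p = 0.0031) and was higher by 1.47 at 21 d (adjusted p = 0.0013). Txnrd1, a reductase that can recycle dehydroascorbate, had 86.4 ± 0.716 RPKM in subconfluent and 57.5 ± 4.45 RPKM in confluent cells. It then had 39.9 ± 5.42 RPKM at 24 h, 23.3 ± 1.02 RPKM at 14 d and 22.1 ± 1.34 RPKM at 21 d. Txnrd1 was already called lower in confluent than in subconfluent cells and at 24 h than in confluent cells. Those calls were lost under 10 of 21 and 13 of 20 alternatives. Against confluent cells its log2 fold change was −1.08 at 14 d (adjusted p = 3.4e-04) and −1.23 at 21 d (adjusted p = 8.7e-05). At 14 d 4 of 9 rose and 1 fell, against 16.9% and 15.3% of all genes (median 0.12 against 0.03 for all genes), and the total was 3 without confluent replicate A (18.0% of all genes called) or 14 d replicate B (16.3%). At 21 d 6 were higher and 2 lower, against 22.0% and 20.8% (median 0.79 against 0.03), and the total was 5 without 21 d replicate A (28.4%). Of 17 other dioxygenases that share the cofactors of the hydroxylases, 4 rose at 14 d, where 16.9% of all genes did (median −0.13 against 0.03 for all genes). At 21 d 5 were higher and 2 lower, against 22.0% and 20.8% (median 0.06 against 0.03). Without 24 h replicate A these totals were 12 and 14, against 48.5% and 57.3% of all genes called, and the same without replicate B (48.8% and 57.3%). The largest fold changes were those of Egln3 and Egln1, prolyl hydroxylases that act on hypoxia-inducible factor, with 4.37 (adjusted p = 1.0e-04) and 1.16 (adjusted p = 1.9e-04) at 21 d against confluent cells.

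P4ha1, P4ha2, Plod1 and Plod2 are known as genes induced by low oxygen, so 18 other textbook targets of hypoxia-inducible factor were counted. Among these, Egln3 was also counted with the other dioxygenases and Slc2a1 with the genes of ascorbate uptake and recycling. At 24 h against confluent cells 0 of 18 were called by edgeR, 4 had an unadjusted p under 0.05 and DESeq2 called 1, and the count was 2 without 24 h replicate A (10.1% of all genes) and 4 without replicate B (39.9%). At 14 d against confluent cells 12 of 18 rose and 1 fell, against 16.9% and 15.3% of all genes, and the median log2 fold change was 0.93 against 0.03. The numbers at 21 d were also 12 and 1, against 22.0% and 20.8%, with a median of 1.18 against 0.03. Adm, which had at most 3 counts in each confluent library, enters these medians at its lower bound, and no fold is given for it. Over the alternatives 9 to 14 targets were called at 14 d in either direction, in fits that called 16.3% to 52.7% of all genes. At 21 d the range was 12 to 18, with 27.9% to 61.5% of all genes. Car9, a carbonic anhydrase and classical hypoxia marker, had 0.192 and 0.193 RPKM in subconfluent cells, 0.189 and 0.251 RPKM in confluent, 0.205 and 0.256 RPKM at 24 h, 18.6 and 25.2 RPKM at 14 d, and 28.1 and 32.8 RPKM at 21 d. As for P4ha1, its 4 samples of 14 d and 21 d were above the other 6 with no overlap. Its log2 fold change against confluent cells was 6.80 at 14 d (adjusted p = 8.4e-06) and 7.20 at 21 d (adjusted p = 6.3e-06). Bnip3, a mitophagy receptor, rose by 2.35 (adjusted p = 1.4e-04) and 2.60 (adjusted p = 4.3e-05). The target that fell in both comparisons was Pfkfb3, with 1.77 RPKM in confluent cells, 0.546 RPKM at 14 d and 0.341 RPKM at 21 d. Its call was lost under 6 of 21 alternatives at 14 d and under 0 of 21 at 21 d. Vegfa, the angiogenic growth factor, was at 8.49 RPKM in confluent cells, 10.2 RPKM at 14 d and 26.6 RPKM at 21 d. Like P4ha2 it rose between 14 d and 21 d (log2 fold change 1.30, adjusted p = 5.8e-04), when 3 of 18 rose and 1 fell, against 3.77% and 5.95% of all genes, a total that was 9 without 24 h replicate A (23.9% of all genes) or B (24.1%). In the fit of all samples Ldha was not called in the comparisons with confluent cells. Its mean was 238 RPKM in confluent cells, 243 RPKM at 14 d and 165 RPKM at 21 d. Ldha was called at 21 d under the alternative that called all 18 targets, a count that takes in either direction. Both 21 d samples of Ldha (153 and 177 RPKM) lay below both confluent ones (224 and 252 RPKM). Oxygen in these cultures was not measured, and its part in the levels of the hydroxylases was not tested.

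**Figure D3:**
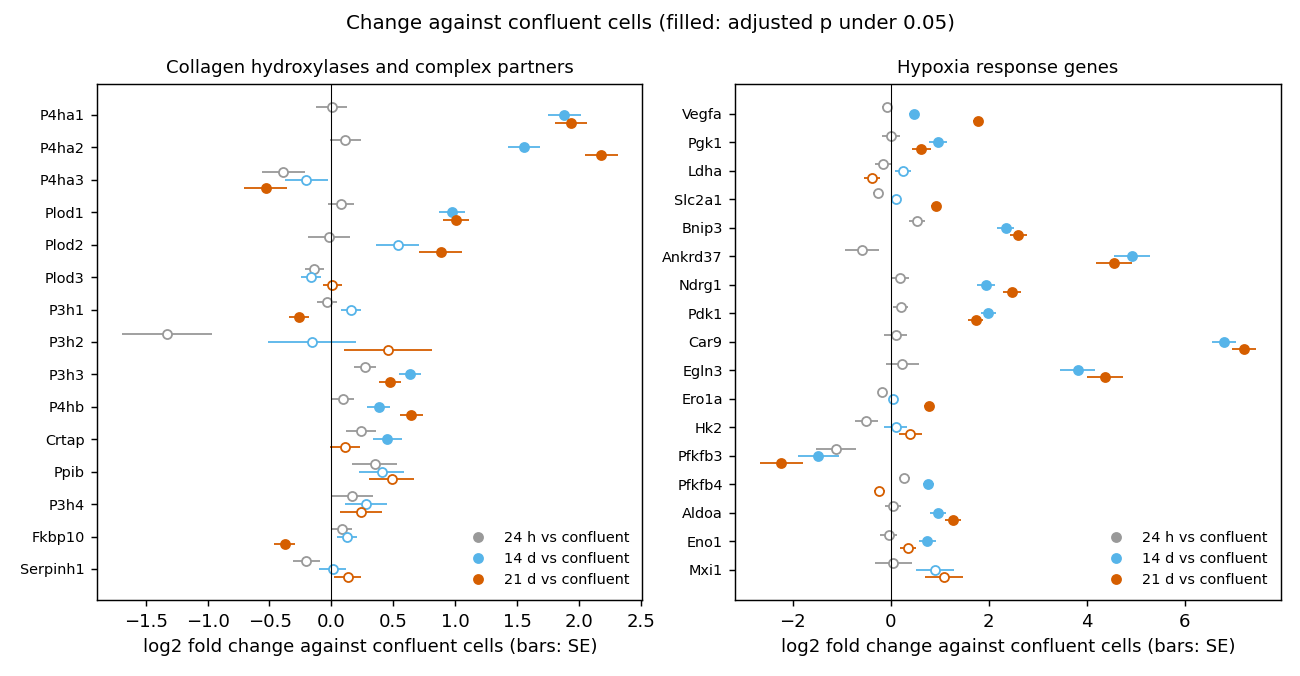
Log2 fold changes against confluent cells at 24 h, 14 d and 21 d for the 9 hydroxylases with their 6 partners (left) and for hypoxia targets other than Adm (right). Bars are standard errors and filled points have an adjusted p under 0.05, and at 24 h no member, partner or target shown is filled.

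Promoter sequences were available for 7 of the 9 members, with 8 entries of 300 bases each, from 250 bases before to 50 after a gene start (RefSeq, GRCm38.p6). Plod2 and P3h2 had no entry. The P4ha2 window, chr11:54100674-54100973, and the second P3h1 window, chr4:119233579-119233878, lie inside the gene coordinates given above and belong to starts further downstream. Both strands were searched for ACGTG and GCGTG, the core letters of the hypoxia response element, where ACGTG also occurs inside the E-box CACGTG. A match was present in 6 of 8 entries, against 43.8% of 32851 promoter windows of the same length, and ACGTG in 4 of 8 against 19.6%. Among the partners 4 of 4 entries held a match, and among the hypoxia targets 23 of 27. P4ha1 held 3 matches and P4ha2 held 4, where 8.93% of windows held at least 3 and 3.86% at least 4. Plod3 held 4, Plod1 held 2 and each of the 2 entries of P3h1 held 2, while P4ha3 and P3h3 held 0. The stretches below are from P4ha1 and P4ha2, the members with the largest fold changes, 5′ to 3′ on the plus strand, with the matched letters or their reverse complement in capitals. They lie at chr10:59323121-59323150, chr10:59323158-59323187 and chr10:59323268-59323297 for P4ha1 and at chr11:54100805-54100834, chr11:54100834-54100863 and chr11:54100922-54100951 for P4ha2. A match describes these letters and was not tested for binding.
P4ha1: acgggaacggtgGCGTGgcaggagctctgc
P4ha1: cactgcgtcctcGCGTGggccagcctaggc
P4ha1: tgtgacagagcgCACGTagcgagggctgcg
P4ha2: tggtgccggtccCACGCggcgcaaggaggt
P4ha2: tgtgcatcgcatACGTGcagcGCGTGgcgg
P4ha2: cgggaggtggggACGTGgcggaggctcaag

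The genes whose levels ran most like those of each member were found among 12081 genes by Pearson's r of log2 counts, scaled for sequencing depth, over the 10 samples, which is a description since the samples fall into stages. For P4ha1 they were Car9 (r = 0.995), the collagenase gene Mmp13 (0.995) and Gm16439 (0.995). For P4ha2 they were Aldoart1 (0.996), Egln1 (0.993) and the glycolytic gene Aldoa (0.989), of which Aldoart1 is a retrocopy of Aldoa and may share its reads. P4ha3 ran most like Mical2 (0.998), Myo1c (0.993) and Lpin2 (0.992). The nearest to Plod1 were Arrb1 (0.990), Apln (0.986) and Gm17035 (0.978), and those to Plod2 were Ahcyl2 (0.989), Gm11839 (0.987) and Mapk8ip3 (0.986). Plod3 had Thy1 (0.980), Nepro (0.970) and Irgm1 (0.968). P3h1 reached lower values, with Usp20 (0.953), Rassf3 (0.951) and Gpsm2 (0.930), as did P3h2, with Cat (0.961), Malt1 (0.955) and Gm5345 (0.950). P3h3 ran most like Carns1 (0.994), Tmem229b (0.992) and Als2cl (0.991).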

How the data were processed

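RNA-seq of 10 MC3T3-E1 samples was analysed from the tables the authors deposited. The deposited counts are whole numbers of reads per Ensembl gene without normalization, and the authors' RPKM values divide them by gene length and a number of reads per sample. The submitters' processing notes name FastQC, TopHat2 2.0.9, R 3.0.1 and mm10. The counting tool and its use of strand are not given in the sources used here. 14 d replicate A and 21 d replicate B were sequenced in 2 lanes each, and the authors' merged columns were used, which differ from the sum of lanes for 13526 and 13582 genes. Total counts were 44736156 to 162939333 per sample.

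Stages came from the sample labels. Identifiers were matched to symbols and GRCm38 coordinates in GENCODE vM21, which gave a symbol for 39547 of 40620. Counts were analysed in edgeR 4.0.16 (R 4.3.3) with filterByExpr, TMM scaling and a quasi-likelihood model of 5 stages fitted to all 10 samples, with 6 comparisons and an F test, each with Benjamini-Hochberg adjustment over 20808 genes. The threshold was an adjusted p under 0.05. Standard errors are the log2 fold change over the square root of F. The 7 ratios were tested with exact two-sided permutation tests (SciPy 1.17.1, Python 3.11.15). The code was tested on simulated data.

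The named genes are the 9 members, genes of the lists (partners, hydroxylysine glycosyltransferases, collagen chains, ascorbate supply, other dioxygenases, hypoxia targets, and osteoblast, adipocyte, chondrocyte, muscle, and blood and endothelial markers), up to 4 with the largest fold change among those called per list with those at or near 0, and the 3 genes most like each member (mean of at least 5 CPM, prior count 2). Others named were chosen after their values were seen. The hypoxia targets share Egln3 with the other dioxygenases and Slc2a1 with ascorbate supply. The collagen chains share Col1a1 with the osteoblast markers and Col2a1 with the chondrocyte markers. Members and lists were chosen with earlier results of these data known. No fold is given where both libraries of a stage held 3 counts or fewer.

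The alternatives were DESeq2 1.42.0 (a likelihood ratio test for the stages), its size factors in edgeR, library size alone, no filter or a minimum of 10 counts in every sample, fits of only the compared groups or without 24 h samples, a block for the replicate letter, limma-trend (limma 3.58.1) on log2(RPKM + 1) and log2(RPKM + 0.1), an adjusted p under 0.01, more than 2-fold, ratios from counts instead of RPKM, and leaving out each replicate. The sum of lanes was added after seeing the data.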

Additional observations from a re-analysis of the deposited data

How the results depend on the processing

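Of 1116 log2 fold changes of the members under alternatives, 979 kept their side of the threshold, 75 passed it newly, 50 no longer passed it, 12 uncalled ones changed sign by more than a standard error and 0 reversed a call. The number of members called in confluent against subconfluent cells was 0, and 2 with only the groups compared, 4 without the 24 h samples, 1 with limma-trend on either RPKM scale and 3 with DESeq2. At 24 h against confluent cells it was 0, and 2 with DESeq2. At 14 d against 24 h it was 4, and 2 with only the groups compared, 7 with DESeq2 and 2 past 2-fold. At 21 d against 14 d it was 2, and 1 with library size alone or no filter, 6 with only the groups compared or without 24 h samples, and 0 at an adjusted p under 0.01 or past 2-fold. At 14 d against confluent cells it was 4, and 7 without 24 h samples and 2 past 2-fold, and at 21 d it was 7, and 3 past 2-fold. Leaving out each replicate in turn gave 0 to 4, 0 to 3, 3 to 7, 0 to 6, 4 to 7 and 5 to 8 members in these 6 comparisons and 5 to 9 in the F test, and here the lone sample of a stage is assumed to vary like the other groups. With the sum of lanes, Plod2 at 14 d against confluent cells was the single member call that changed.

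Between growth and osteogenic samples, leaving out replicates moved the difference from 7.13 to 10.1 percentage points for the P4ha2 share, from 5.49 to 7.61 for Plod2 and from −7.26 to −5.03 for P3h1. For summed P4ha per P4hb it ran from −0.0138 to 0.0297, for summed P3h per Crtap from −0.0358 to 0.0162, for summed P4ha per 1000 RPKM of Col1a1 from −0.186 to 5.39 and for summed Plod from −2.96 to 0.00132. These ranges leave out 1 replicate at a time. Leaving out both 24 h samples raises the osteogenic mean of summed P4ha per P4hb above 0.329, as its stage means were 0.236 at 24 h, 0.401 at 14 d and 0.350 at 21 d. It also raises that of summed P4ha per 1000 RPKM of Col1a1 above 27.1, with stage means of 20.2, 19.7 and 41.3. Without 24 h samples summed P3h per Crtap differed by 0.0105. The cause was not tested.

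Replicate letters did not pair the samples, as the deviations of same-lettered samples correlated at −0.33 to 0.32 over 10 pairs of stages. With the replicate block, 0, 0, 3, 2, 5 and 5 members were called in the 6 comparisons and 8 in the F test. P4ha3 and P3h1 were not called with it at 21 d against confluent cells, nor P3h3 at 14 d against 24 h, nor P3h2 in the F test.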

Other observations

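The 6 adipocyte markers summed to between 0.135 and 1.13 RPKM per sample, with Plin1, Cidec and Lep at 3 counts or fewer in every sample. Of the 2 tested, Fabp4 was called at 24 h against confluent cells (adjusted p = 0.035, edgeR) and at 14 d against 24 h. Both calls were lost with the replicate block, with only the groups compared and without any 1 subconfluent, confluent or 21 d replicate. The second was also lost without either 14 d replicate or 24 h replicate A. Over the alternatives the adjusted p-values reached 0.21 and 0.17. The 6 muscle markers summed to 43.1 and 43.8 RPKM in subconfluent replicates A and B, 42.1 and 37.6 RPKM in confluent, 21.9 and 32.2 RPKM at 24 h, 19.1 and 15.6 RPKM at 14 d, and 14.7 and 14.8 RPKM at 21 d. Most of this was Acta1, the single gene of 3 tested to be called, which was lower at 21 d than in confluent cells (log2 fold change −1.32, adjusted p = 6.1e-04, edgeR), while Myod1 and Myog were at or near 0. The 6 blood and endothelial markers summed to between 2.39 and 4.01 RPKM, most of it Csf1r, and Ptprc, Adgre1 and Cdh5 had at most 3 counts in every sample. In edgeR 0 of the 3 tested blood and endothelial markers were called in any comparison, 0 had an unadjusted p under 0.05 and DESeq2 called 0. Leaving out 24 h replicate B gave 1 call at 24 h against confluent cells and 1 at 14 d against 24 h, where 39.9% and 46.6% of all genes were called. The part of any of these cells in the hydroxylase levels was not tested.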
